A study of Mus musculus with 2 samples.

Results

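The Runx and core binding factor genes are a small set of transcriptional regulators of blood, bone and neurons, and their DNase I hypersensitivity was examined here in M1 cells with and without IL-6. The set was chosen by name and held 7 genes of the 22605 genes in the table, namely the DNA-binding subunits Runx1, Runx2 and Runx3, the partner subunit Cbfb, and the corepressors Runx1t1, Cbfa2t2 and Cbfa2t3. These genes were listed as 42 transcripts, and the transcript with the most windows stood for each gene. M1 is a mouse myeloid leukemia line, labelled as myeloid progenitors, which is a model of macrophage differentiation in a single transformed line and not of normal marrow. The 2 groups were untreated M1 cells and M1 cells grown with IL-6 for 4 to 5 days, both at passages 15 to 18, with horse serum in the medium and no genetic change named in the labels. DHS-seq reads out accessible chromatin by a limited DNase I digestion of isolated nuclei, after which the small fragments with a cut at both ends are sequenced. There was 1 library per group, so no difference has a replicate check, and no p-value is given.

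RUNX proteins bind DNA through the Runt domain, and CBFβ binds the same domain and raises its affinity for DNA without contacting DNA itself. RUNX1 is required for the first blood stem cells of the embryo and is a frequent target of mutation and translocation in leukemia, RUNX2 is the master regulator of osteoblasts, and RUNX3 acts in T cells, NK cells and sensory neurons. Each Runx gene is read from a distal promoter and a proximal promoter, which give proteins with different first residues. RUNX1T1 (ETO), CBFA2T2 (MTGR1) and CBFA2T3 (ETO2, MTG16) do not bind DNA on their own and recruit NCoR, Sin3 and histone deacetylases to the factors they attach to. RUNX1T1 and CBFA2T3 are both known as partners of RUNX1 in leukemic fusions, and CBFA2T3 is a corepressor of the hematopoietic TAL1 complex.

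Signal is listed per transcript as a mean and SD between 700-bp windows, taken over every window from the start to the stop codon, introns included. Reads were recovered from these means, with 1 read worth 1.0 in the untreated library and 1.03816 in the IL-6 library on the scaling of the table. Whether a recovered unit is a single read or a fragment is not settled by the sources, and it is called a read throughout. Levels are given as reads per window on that scaling, and ratios are IL-6 over untreated with a 95% Clopper-Pearson interval that covers counting error only and compares these 2 libraries. Non-overlapping coding spans held 9102320 untreated and 8544903 IL-6 reads, or 7.58 and 7.39 reads per window. A ratio of 2-fold or more downward was found for 13.4%, and upward for 1.69%, of the 18472 genes with over 21 reads in a library, whose median log2 ratio was 0.03. In such bulk samples, fewer cells with an open site and less cutting of it per cell cannot be told apart. All values of direction below depend on this scaling. A scaling by the median of ratios over single windows adds 1.83 to every log2 ratio, and under it all 7 genes were higher after IL-6. Scaling by total reads or no scaling moves a log2 ratio by 0.04 or -0.05. Ratios between spans and the coefficient of variation do not depend on the scaling.

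The start codons of the Runx genes divide each locus into the stretches compared below, so the coding sequence that begins at each start is shown, with the start codon in capitals. Sequences were read from NCBIM37 at the GENCODE M1 start codons, 5′ to 3′ on the coding strand. At the distal starts the first coding exon has 58 bases in all 3 genes.
Runx1 distal start, chr16:92825834-92825891, minus strand: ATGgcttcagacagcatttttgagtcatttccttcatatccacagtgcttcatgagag
Runx2 distal start, chr17:44951118-44951175, minus strand: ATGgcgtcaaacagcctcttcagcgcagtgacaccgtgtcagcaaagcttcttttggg
Runx3 distal start, chr4:134677021-134677078, plus strand: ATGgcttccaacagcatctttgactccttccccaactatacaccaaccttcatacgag
Runx1 proximal start, chr16:92695941-92695998, minus strand: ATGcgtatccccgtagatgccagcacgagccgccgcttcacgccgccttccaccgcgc
Runx2 proximal start, chr17:44872526-44872583, minus strand: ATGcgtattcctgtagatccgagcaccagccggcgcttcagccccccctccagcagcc
Runx3 proximal start, chr4:134708687-134708744, plus strand: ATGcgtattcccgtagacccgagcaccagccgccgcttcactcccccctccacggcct

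Without gaps, the distal starts of Runx1 and Runx3 were identical at 41 of 58 bases (70.7%), those of Runx1 and Runx2 at 34 (58.6%), and those of Runx2 and Runx3 at 33 (56.9%). The proximal starts were more alike, with 48 of 58 identical bases between Runx2 and Runx3, 47 between Runx1 and Runx3, and 44 between Runx1 and Runx2. Within one gene, the distal and the proximal start shared 15, 14 and 23 bases in Runx1, Runx2 and Runx3. The 3 loci therefore have corresponding pairs of start codons, and the DNA between them was compared from gene to gene. These parts do not hold the same elements. The proximal transcription start lies between the start codons in Runx1 and, for some transcripts, in Runx2. In Runx3 it belongs to the windows from the proximal start on.

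Promoter windows are inside the listed spans at some of these genes and outside at others. The 250 bases before the transcription start are shown for 3 promoters whose windows were read, with each CG dinucleotide in capitals because CpG-rich promoters are the usual kind at widely expressed genes.
Cbfb promoter, chr8:107694324-107694573, plus strand: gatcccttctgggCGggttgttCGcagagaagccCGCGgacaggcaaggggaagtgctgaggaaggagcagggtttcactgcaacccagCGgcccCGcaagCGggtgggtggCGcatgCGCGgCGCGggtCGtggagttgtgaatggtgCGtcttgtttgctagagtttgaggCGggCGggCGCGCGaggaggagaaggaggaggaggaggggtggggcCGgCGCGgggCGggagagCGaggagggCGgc
Cbfa2t2 promoter, chr2:154261967-154262216, plus strand: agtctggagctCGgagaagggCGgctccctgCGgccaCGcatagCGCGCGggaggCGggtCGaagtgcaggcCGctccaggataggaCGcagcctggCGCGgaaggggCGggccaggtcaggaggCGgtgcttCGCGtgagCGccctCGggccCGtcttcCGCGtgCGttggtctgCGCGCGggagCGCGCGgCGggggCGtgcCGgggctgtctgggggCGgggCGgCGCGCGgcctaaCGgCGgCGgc
Runx1 proximal promoter, chr16:92697574-92697823, minus strand: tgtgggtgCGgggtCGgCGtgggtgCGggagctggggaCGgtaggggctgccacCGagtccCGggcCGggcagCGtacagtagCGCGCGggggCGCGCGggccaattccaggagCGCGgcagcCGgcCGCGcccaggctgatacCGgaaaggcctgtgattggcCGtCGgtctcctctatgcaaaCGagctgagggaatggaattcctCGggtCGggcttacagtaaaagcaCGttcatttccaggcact

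These stretches held 25 CG dinucleotides for Cbfb, 40 for Cbfa2t2 and 27 for the proximal Runx1 promoter, beside a median of 8 over 22345 promoters of the same length. The proximal promoter of Runx3 held 33 CG dinucleotides, while its distal promoter held 7. The distal promoter of Runx1 held 2, before either of its annotated transcription starts. The letters of the RUNX binding site, TGTGGT or TGCGGT on either strand, were in none of the 3 promoters printed and in 17.8% of all promoters of this length. Before distal transcription starts the letters occurred at 2 places in Runx3, at 2 places before one Runx1 start and none before the other, and at 0 to 4 places before the distal starts of Runx2, where the stretches overlap each other and exons. The distal Runx1 promoter has an annotated transcription start at 92826256, inside the last listed window of the gene, and another at 92826311, just beyond it, so the bases upstream of both are only in part or not at all in the windows. The 5′ transcription start of Cbfa2t3 at 125223009 also lies beyond the listed windows, and signal there is not analysed here. Other annotated transcription starts of Cbfa2t3 lie inside the listed windows, among them starts with 27 to 49 CG dinucleotides before them.

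In untreated M1 cells the level per window was highest at Cbfa2t3, with 18.4 reads per window (exact Poisson interval 17.6 to 19.3). Runx1 followed with 17.3 (16.8 to 17.7) and Runx3 with 16.8 (15.9 to 17.7), and the intervals of these 3 genes overlap. Cbfb held 10.5 reads per window (9.73 to 11.3), Runx2 7.25 (6.97 to 7.54) and Cbfa2t2 6.11 (5.71 to 6.53), each apart from its neighbours in the order. Runx1t1 was lowest with 1.64 (1.47 to 1.82). The median of all genes was 7.75 reads per window, so Cbfa2t3, Runx1 and Runx3 were at the 82.6, 81.0 and 80.2 percentiles, Cbfb at the 63.5, Runx2 at the 46.9, Cbfa2t2 at the 39.9 and Runx1t1 at the 9.7 percentile.

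After IL-6 the order was Cbfa2t3 with 15.3 reads per window (14.5 to 16.1), Runx3 with 12.4 (11.6 to 13.2) and Runx1 with 10.2 (9.81 to 10.5), whose intervals do not overlap. Runx2 with 7.82 (7.52 to 8.12) and Cbfb with 7.0 (6.36 to 7.68) overlap. Cbfa2t2 held 5.93 (5.53 to 6.35), and Runx1t1 again had the lowest level with 2.09 (1.9 to 2.3). Runx1 was thus at the 63.3 percentile of genes in the IL-6 library, Runx3 at the 74.9 and Cbfa2t3 at the 84.6 percentile.

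**Figure D1:**
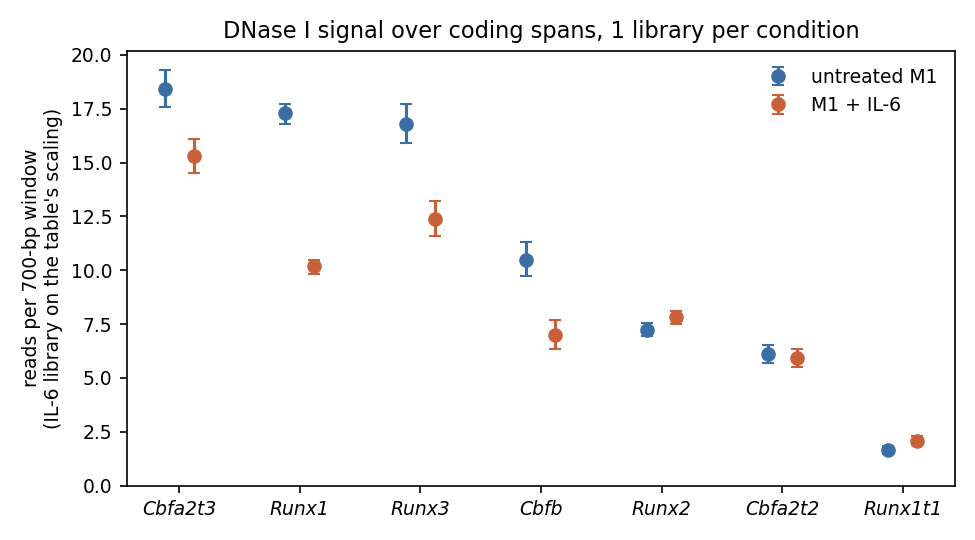
DNase I signal in reads per 700-bp window (y axis, IL-6 library on the scaling of the table) over the coding span of each gene (x axis, ordered by the untreated level), for the untreated (blue) and IL-6 (orange) library, with 95% exact Poisson intervals of counting error. Runx1 is at 17.3 and 10.2 reads per window, and Runx1t1 is lowest in both libraries at 1.64 and 2.09.

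Over the whole coding span, a decrease of 2-fold was found in none of the 7 genes, beside 13.4% of all genes. An increase of that size was also found in none, beside 1.69%. The ratio was below 1 for 5 of the 7 genes, beside 48.3% of all genes, and above 1 for 2, beside 51.7%. The interval was below 1 for 4 of 7, beside 34.4% of all genes, and above 1 for 2, beside 29%. At 1.5-fold, Runx1 was past the threshold, Cbfb was at it (ratio 0.667) and was counted as short of it once 0.5 reads were added, and 23.2% of all genes were lower by that much. These shares over 7 genes carry no test.

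At Runx1, on chromosome 16 (minus strand), the 316 windows of the coding span, from 92605101 to 92826300, held 5452 reads in untreated cells and 3094 reads after IL-6. The ratio was 0.589 [0.564–0.616], a log2 ratio of -0.76. It was at the 18.4 percentile of all genes. This value depends on the transcript, since the log2 ratio was -0.29 as the median over transcripts. For the transcript with the fewest windows, which covers only 1 window with 46 and 32 reads, it was -0.46. The difference was uneven along the gene. The 186 windows between the distal and the proximal start, from 92696101 to 92826300, held 4163 untreated and 1954 IL-6 reads, or 22.4 and 10.9 reads per window, a ratio of 0.487 [0.462–0.514]. The window with the proximal start codon, the ATGcgt start shown above, held 46 and 32 reads, a ratio of 0.722 [0.445–1.16] that counting error does not separate from 1.

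From the window of the proximal start codon toward the 3′ end, the 129 windows of Runx1 from 92605801 to 92696100 held 1289 and 1138 reads, or 9.99 and 9.16 reads per window. Their ratio was 0.917 [0.846–0.993]. The last window of the coding span, with 0 and 2 reads, is not among them. The ratio of the distal part was 0.532 [0.482–0.586] times that of these 129 windows, and this value is the same under any scaling. In untreated cells the distal part held reads very unevenly, with an SD between windows of 42.1 and a strongest window of at least 102 reads, a bound that the sum and the sum of squares of the windows allow. After IL-6 the SD was 9.86, and the strongest window held at least 20 and at most 139 reads. Where in the 130.2 kb the strongest window lies was not determined. This stretch includes the proximal promoter shown above and the long first intron, a region known for a stem cell enhancer of Runx1.

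At Runx2, on chromosome 17 (minus strand), the transcript with the most windows begins at the proximal start, covers 44633401 to 44872800 and held 2479 and 2575 reads over 342 windows. The ratio was 1.08 [1.02–1.14], a log2 ratio of 0.11, at the 55.0 percentile. Several parts with opposite signs lie behind this value. The 159 windows at the 3′ end, beyond the stop codon of the shorter transcripts, held 876 untreated and 1244 IL-6 reads, or 5.51 and 8.12 reads per window, a ratio of 1.47 [1.35–1.61]. The 183 windows from the proximal start to the shorter 3′ end held 1603 and 1331 reads, a ratio of 0.862 [0.801–0.928]. The 113 windows between the distal and the proximal start, which the longest transcript leaves out, held 969 and 649 reads, a ratio of 0.695 [0.629–0.769].

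The 3′ part of Runx2 had 1.71 [1.53–1.92] times the ratio of the middle part, and the distal part had 0.807 [0.712–0.914] times it, so neither difference lies within counting error. Over all 455 listed windows of the gene the reads were 3448 and 3224, a ratio of 0.971 [0.925–1.02], and this joined span reads lower where the longest transcript reads higher. The window from 44951201 to 44951900 holds the most upstream start codon of Runx2, which lies upstream of the distal start printed above, and held 34 and 14 reads, a ratio of 0.427 [0.212–0.818]. The 16 windows at the proximal start held 318 and 183 reads, or 19.9 and 11.9 reads per window, and a ratio of 0.597 [0.495–0.719]. Subtraction of transcripts also isolated a pair of windows, one of them with the proximal start codon of Runx2, which together held 78 untreated and 24 IL-6 reads. One of the pair held 75 and the other 3 untreated reads, and 20 and 4 IL-6 reads, but which is which could not be determined. The stretches of Runx2 that hold its start codons thus held fewer reads after IL-6, while its 3′ part held more.

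At Runx3, on chromosome 4 (plus strand), 79 windows from 134676501 to 134731800 held 1326 untreated and 945 IL-6 reads, with a ratio of 0.74 [0.68–0.805], a log2 ratio of -0.43, at the 27.8 percentile. The 45 windows between its starts held 778 and 526 reads, or 17.3 and 12.1 reads per window, a ratio of 0.702 [0.627–0.785]. The 34 windows from the proximal start on held 548 and 419 reads, or 16.1 and 12.8 reads per window, a ratio of 0.794 [0.697–0.903]. The parts of Runx3 did not differ beyond counting error, with a ratio of ratios of 0.884 [0.744–1.05]. Its proximal promoter lies in the second part, whereas that of Runx1 lies between the starts, so the 2 splits are not alike.

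**Figure D2:**
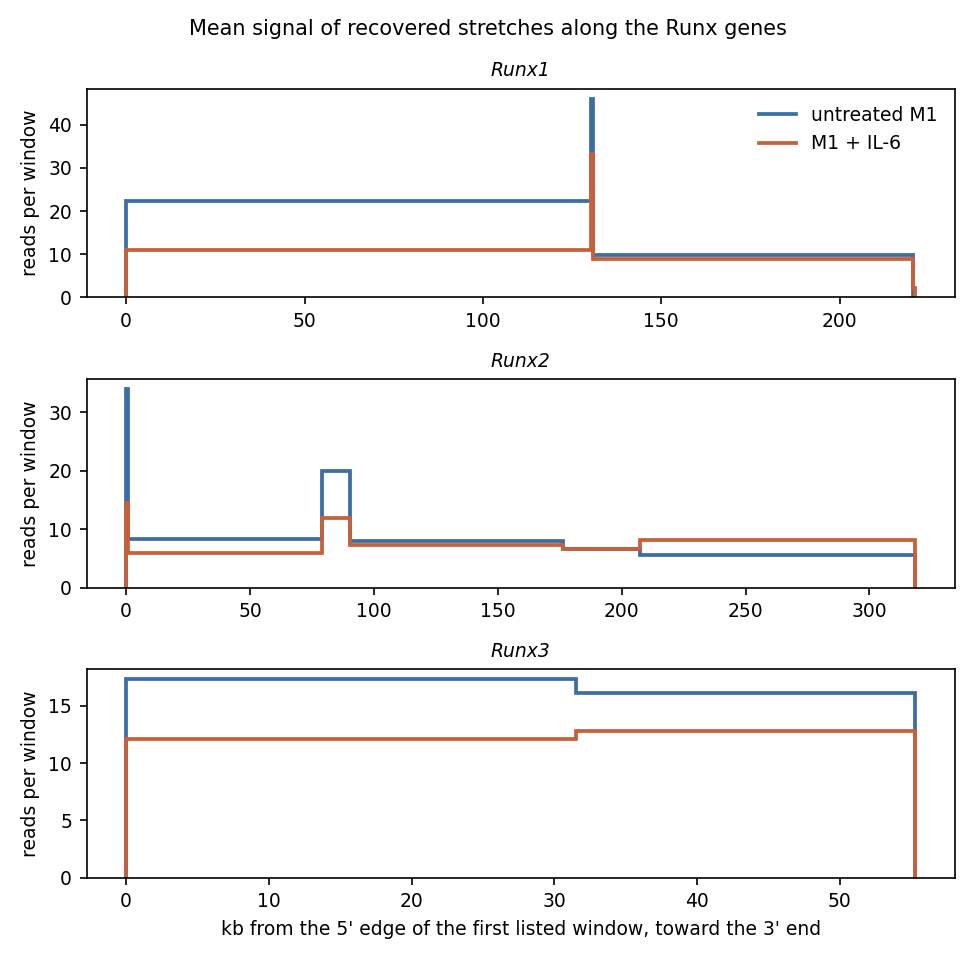
Mean reads per 700-bp window (y axis) of each recovered stretch along Runx1, Runx2 and Runx3 (x axis, kb from the 5′ edge of the first listed window), untreated in blue and IL-6 in orange on the scaling of the table. Runx1 has 22.4 untreated and 10.9 IL-6 reads per window between its starts, Runx2 is lower near its 5′ starts and higher at the 3′ end after IL-6, and Runx3 is lower in both parts.

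Over the transcripts with the most windows, the 3 Runx genes differed from each other beyond counting error. The ratio of Runx1 was 0.546 [0.509–0.587] times that of Runx2 and 0.796 [0.724–0.876] times that of Runx3, and the ratio of Runx2 was 1.46 [1.32–1.61] times that of Runx3. Against all coding spans together, Runx1 was at 0.605 [0.578–0.632], Runx3 at 0.759 [0.698–0.826] and Runx2 at 1.11 [1.05–1.17]. The value of Runx2 uses its longest transcript, without the distal part. The order rests on this choice of transcript: as medians over transcripts the log2 ratios were -0.29 for Runx1, -0.29 for Runx2 and -0.38 for Runx3, and for the transcripts with the fewest windows they were -0.46, -0.58 and -0.33. The -0.46 of Runx1 comes from 1 window with 46 and 32 reads, whose ratio counting error does not separate from 1.

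At Cbfb, the partner subunit, on chromosome 8 (plus strand), 66 windows from 107694301 to 107740500 held 693 untreated and 445 IL-6 reads. The ratio was 0.667 [0.59–0.752], a log2 ratio of -0.58, at the 23.2 percentile. All 4 listed transcripts of Cbfb touch the same windows, so no stretch of it could be separated. Its reads were the most concentrated of the set. The SD between windows was 38.4 in untreated cells, against a mean of 10.5, and 8.17 after IL-6, against a mean of 7.0. The strongest window held between 158 and 317 untreated reads, and between 16 and 69 reads, at most 71.6 after scaling, in the IL-6 library. These bounds do not overlap, so at least 1 window of Cbfb lost more than the gene as a whole on this scaling. The CpG-rich promoter and the start codon of Cbfb lie in its first listed window, but the position of the strongest window was not determined.

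Among the corepressors, Cbfa2t3, on chromosome 8 (minus strand), held 1804 untreated and 1445 IL-6 reads over 98 windows from 125154401 to 125223000, a ratio of 0.832 [0.775–0.892], a log2 ratio of -0.27. The 69 windows between its distal start and its internal start held 1430 and 1025 reads, or 20.7 and 15.4 reads per window, a ratio of 0.744 [0.686–0.807]. They include the CpG-rich transcription starts of Cbfa2t3 named above. The 29 windows from the internal start to the 3′ end held 374 and 420 reads, or 12.9 and 15.0 reads per window, a ratio of 1.17 [1.01–1.34]. The 5′ part had 0.638 [0.542–0.752] times the ratio of the 3′ part. As at the 3 Runx genes, the part between the starts held fewer reads after IL-6, and on the scaling of the table the parts of Cbfa2t3 had opposite signs. All 98 windows also lie in the read-through span Gm20388, which has 6334 windows, so the reads of Cbfa2t3 are counted in that span too.

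Cbfa2t2, on chromosome 2 (plus strand), held 867 and 811 reads over 142 windows from 154261801 to 154361200, a ratio of 0.971 [0.881–1.07] that counting error does not separate from 1. Its parts differed. A set of 8 windows, made of the window with the promoter and start codon and 7 windows further in, held 233 untreated and 119 IL-6 reads, a ratio of 0.53 [0.422–0.664]. The strongest of these 8 windows held between 128 and 163 untreated reads and between 35 and 57 IL-6 reads. The 98 windows between them held 428 and 431 reads, a ratio of 1.05 [0.912–1.2], with no window above 40 untreated reads. The 3′ 36 windows held 206 and 261 reads, a ratio of 1.32 [1.09–1.59]. The value near 1 over the gene thus joined windows with fewer and windows with more reads after IL-6, and the 5′ 106 windows had 0.657 [0.527–0.819] times the ratio of the 3′ 36 windows.

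Runx1t1, the ETO gene on chromosome 4, held few reads in both libraries, 344 and 423 over 210 windows from 13670301 to 13817300 on the plus strand. The ratio was 1.28 [1.1–1.48], a log2 ratio of 0.35, at the 72.9 percentile. Its first 40 windows held 78 and 80 reads, with no window above 13 reads in either library. The next 19 windows held 29 and 54 reads, a ratio of 1.93 [1.21–3.15], and the last 151 windows held 237 and 289 reads, a ratio of 1.27 [1.06–1.51]. The ratio of the first stretch did not differ from that of the last beyond counting error, at 0.841 [0.58–1.22]. The strongest window anywhere in Runx1t1 held at most 24 untreated reads, while that of Cbfb held at least 158.

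Among the 3 corepressor genes, the ratio of Runx1t1 was 1.53 [1.31–1.8] times that of Cbfa2t3 and 1.31 [1.1–1.57] times that of Cbfa2t2, and the ratio of Cbfa2t2 was 1.17 [1.04–1.32] times that of Cbfa2t3. With the median over transcripts the last order turned, at a log2 ratio of -0.04 for Cbfa2t2 and 0.22 for Cbfa2t3. Of the 22 recovered stretches of the 7 genes with more than 21 reads, 2 were at least 2-fold lower, namely the part of Runx1 between its starts and the window with the most upstream start of Runx2. Over all genes 12.5% of stretches were that much lower and 2.07% that much higher, and no stretch of these genes was 2-fold higher.

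**Figure D3:**
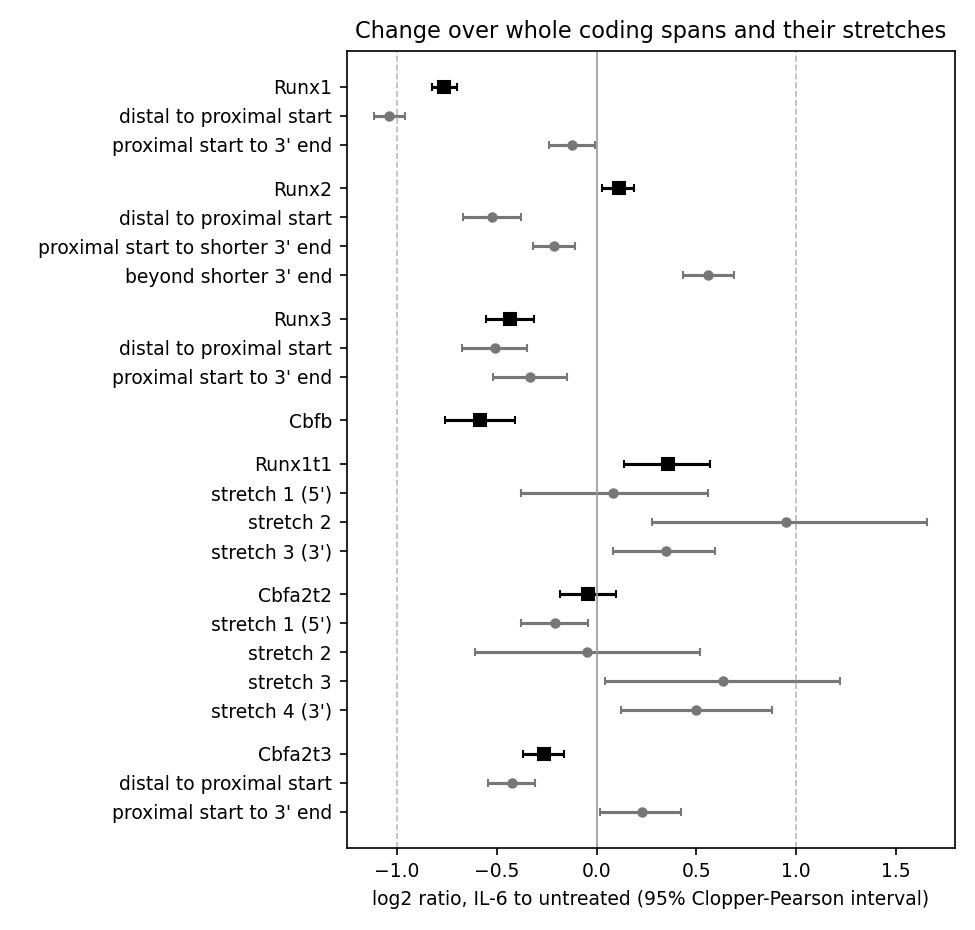
The log2 ratio of IL-6 to untreated reads (x axis) with 95% Clopper-Pearson intervals, for each whole coding span (black squares) and for its stretches (grey circles), on the scaling of the table. Dashed lines mark a 2-fold change. The Runx1 stretch between the distal and the proximal start, at -1.04, is past the lower line by its value, but its interval holds that line.

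In all 7 genes the reads were spread more evenly over the windows after IL-6. The coefficient of variation between windows, which is the SD divided by the mean, was 3.65 in untreated and 1.17 in IL-6-treated cells at Cbfb, 2.28 and 1.1 at Cbfa2t2, and 1.92 and 0.831 at Runx1. It was 1.42 and 0.765 at Runx2, 1.22 and 0.599 at Cbfa2t3, and 1.05 and 0.528 at Runx3. At Runx1t1 it was 0.952 and 0.805, where counting alone would give 0.781 and 0.705, so a large part of the unevenness there is that of counting. A lower value after IL-6 was also found in 90.3% of the 10269 genes with at least 20 windows, whose medians were 1.09 and 0.756, so the direction is not particular to these genes. At Cbfb the decrease was at the 2.77 percentile of those genes, at Runx1 at the 16.7 percentile and at Runx1t1 at the 67.9 percentile.

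**Figure D4:**
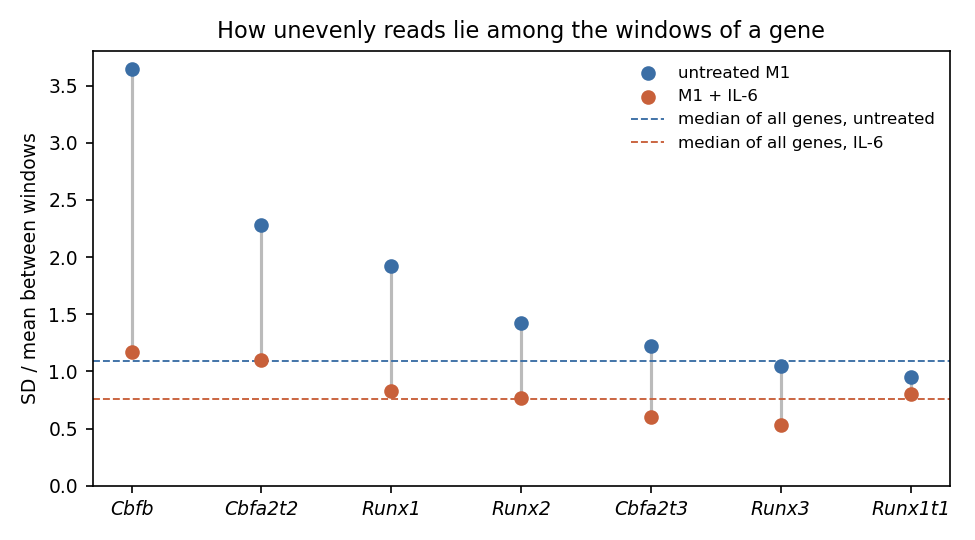
Coefficient of variation between the 700-bp windows of each gene (y axis, SD divided by mean), untreated in blue and IL-6 in orange, with dashed lines for the medians of all genes with at least 20 windows. Every gene of the set is lower after IL-6, with the widest gap at Cbfb (3.65 and 1.17).

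Over the whole table the log2 ratio was lower in genes with more signal. Among genes with 20 to 40 reads per window in both libraries summed, which include Runx1, Runx3 and Cbfa2t3, the median log2 ratio was -0.11 and 57.4% were lower. Among genes with 10 to 20 reads, which include Runx2, Cbfb and Cbfa2t2, the median was 0.17 and 36.3% were lower. Among genes with 5 to 10 reads, a class without any of the 7 genes, the median was 0.34 and 24.3% were lower. Among genes with fewer than 5 reads, which include Runx1t1, the median was 0.49 and 11.8% were lower. In the classes with most signal the medians were -0.94 from 40 to 80 reads, with 84.8% lower, and -1.76 from 80 reads on, with 98.3% lower. All 7 genes were below the median of their class, Cbfb farthest (-0.58 against 0.17), then Runx1 (-0.76 against -0.11), and Runx2 least (0.11 against 0.17). A median has as many genes below it as above it, and the count carries no test. Within its class Cbfb was at the 9.33 percentile and Runx1 at the 17.6. Runx3 was at the 31.6, Cbfa2t2 at the 33.5, Runx1t1 at the 34.5, Cbfa2t3 at the 40.9 and Runx2 at the 44.4 percentile. The part of this trend in the values of single genes was not tested.

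**Figure D5:**
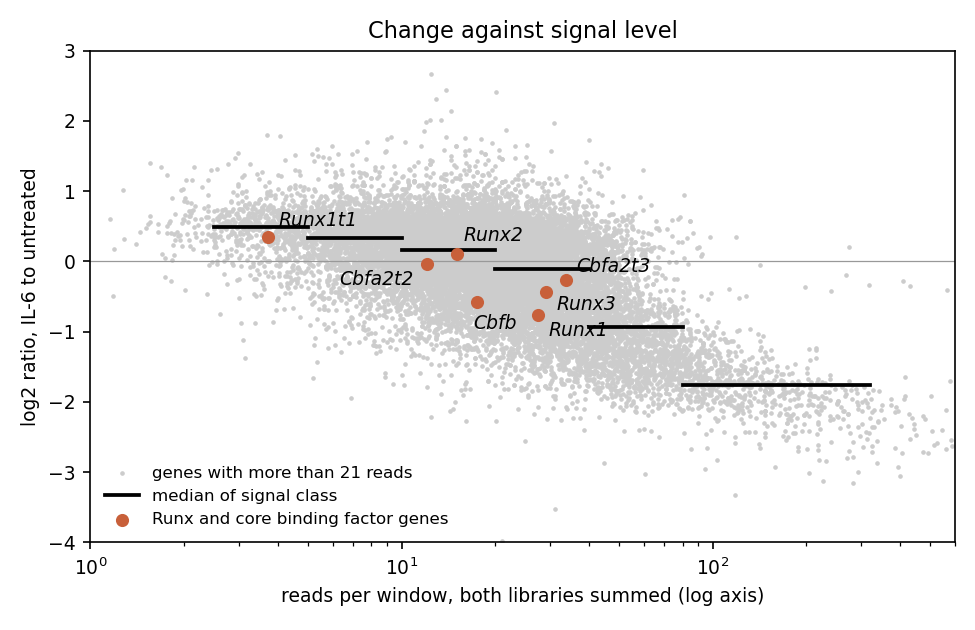
The log2 ratio of IL-6 to untreated reads (y axis) against reads per window in both libraries summed (x axis, log scale) for the 18472 genes (grey) and the Runx and core binding factor genes (orange), with black lines at the median of each signal class. The class medians fall with the signal, and Runx1 and Cbfb lie below the medians of their classes.

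Partners and targets of these proteins were examined as lists, beside all genes, of which 48.3% were lower, 51.7% higher, and past 2-fold were 13.4% downward and 1.69% upward. Of 13 RUNX partners and modifiers, 4 were lower and 9 higher after IL-6, none was past 2-fold, and the median log2 ratio was 0.13. Prmt1, an arginine methyltransferase that modifies RUNX1, held 270 and 191 reads, a ratio of 0.734 [0.607–0.887]. Suv39h1, a histone H3K9 methyltransferase, held 96 and 61 reads, a ratio of 0.66 [0.471–0.919]. At the other end, Yap1, a Hippo pathway coactivator, held 433 and 611 reads, a ratio of 1.46 [1.29–1.66], and the Groucho corepressor Tle3 held 787 and 1066 reads, a ratio of 1.41 [1.28–1.54].

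Of 17 measured partners of the ETO-family corepressors, 11 were lower and 6 higher, and 3 were at least 2-fold lower, with a median log2 ratio of -0.2, beside 48.3% lower and 13.4% at least 2-fold lower among all genes. The bHLH factor Lyl1 held 716 and 199 reads over 3 windows, a ratio of 0.289 [0.245–0.338], or a log2 ratio of -1.79 in a signal class with a median of -1.76. Ldb1, the bridging protein of the TAL1 complex, held 525 and 197 reads, a ratio of 0.39 [0.329–0.46]. Its log2 ratio was -1.36, in a signal class with a median of -0.94. The third gene past 2-fold, named after its value was seen, was Tal1, a blood bHLH factor, with 25.1 untreated and 11.0 IL-6 reads per window. Zbtb16 (PLZF), a zinc-finger repressor, held 2464 and 3305 reads, a ratio of 1.39 [1.32–1.47], and Gfi1b, a repressor of erythroid and megakaryocyte cells, held 93 and 115 reads, a ratio of 1.28 [0.968–1.71].

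Of 22 RUNX1 target genes of blood cells with more than 21 reads, 11 were lower and 11 higher, and 4 were at least 2-fold lower, with a median log2 ratio of -0.03, beside 48.3% lower and 13.4% at least 2-fold lower among all genes. Cebpa, the master factor of granulocyte commitment, held 93 and 29 reads, a ratio of 0.324 [0.206–0.496], and Cebpe, a factor of later granulocytes, held 263 and 104 reads, a ratio of 0.411 [0.324–0.517]. The log2 ratio of Cebpa was -1.61, in a signal class with a median of -0.94. That of Cebpe was -1.28, above the median of -1.76 in its class. The others past 2-fold, named after their values were seen, were Tal1, given above, and Sfpi1 (PU.1), a myeloid ETS factor, with 28.9 and 12.9 reads per window. The ETS factors Ets1, with 776 and 1140 reads and a ratio of 1.53 [1.39–1.67], and Erg, with 1572 and 2170 reads and a ratio of 1.43 [1.34–1.53], were at the other end. Of 7 measured skeletal and neuronal factors, which work with RUNX2 or RUNX3 outside the blood, 1 was lower and 6 higher, beside 51.7% of all genes higher, with a median of 0.35. The list had low median levels, 4.75 untreated and 6.6 IL-6 reads per window. In the signal class of 10 to 20 reads in both libraries summed, the median was 0.17 and 36.3% of genes were lower. In that of 5 to 10 reads these were 0.34 and 24.3%. The 1 gene at least 2-fold higher, named after its value was seen, was Neurog1, a neuronal bHLH factor, with 4.5 and 17.1 reads per window over 2 windows. The osteoblast factor Sp7 held 248 and 207 reads, a ratio of 0.867 [0.717–1.05], and the cartilage factor Sox9 held 53 and 55, a ratio of 1.08 [0.725–1.6]. The neurotrophin receptor Ntrk3 held 2130 and 2964, a ratio of 1.44 [1.37–1.53], and Isl1, a neuronal homeobox factor, held 69 and 85, a ratio of 1.28 [0.92–1.78].

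The labelled cell type was checked with 22 blood and myeloid markers and 18 markers of other tissues. In untreated cells the blood markers had a median of 13.2 reads per window (2.75 to 129) and the markers of other tissues a median of 9.28 (1.56 to 38.9). After IL-6 the medians were 12.8 (3.4 to 36.0) and 12.4 (2.42 to 26.7), and none of either list was at 0 in either library. Summed over their windows, the blood markers held 11.2 and 7.54 reads per window and the markers of other tissues 13.0 and 13.2, so signal over coding spans did not separate the lists. Among the blood markers 13 were lower and 9 higher, beside 48.3% and 51.7% of all genes, with a median log2 ratio of -0.5. Of these 22, 7 were at least 2-fold lower, beside 13.4% of all genes, and none 2-fold higher, beside 1.69%. The macrophage marker Cd68 held 387 and 75 reads, a ratio of 0.201 [0.155–0.258], or a log2 ratio of -2.31 in a signal class with a median of -1.76. Cebpa is given above, and the granule peroxidase Mpo held 151 and 183 reads, a ratio of 1.26 [1.01–1.57]. The receptor gene Kit held 467 and 598 reads, a ratio of 1.33 [1.18–1.5]. Of 15 measured markers of other tissues, 3 were lower and 12 higher, beside 48.3% and 51.7% of all genes, with a median of 0.37. At least 2-fold lower was 1 of them, Ckm, beside 13.4% of all genes. At least 2-fold higher, beside 1.69% of all genes, were 2, Gcg and Ins2 (7.5 and 15.6 reads per window for the latter), both pancreatic hormone genes named after their values were seen. Over all genes the number at least 2-fold higher was 313, and 46 with at least 100 reads over both libraries. At the ends of the list named by rule were the muscle gene Ckm at a ratio of 0.333 [0.276–0.402] and the liver gene Afp at 0.782 [0.641–0.953], while the T-cell gene Cd3e was at 1.52 [1.24–1.88] and the liver gene Alb at 1.4 [1.02–1.95].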

How the data were processed

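The authors made 1 DHS-seq library from untreated and 1 from IL-6-treated M1 cells. Reads were trimmed, aligned with BWA to NCBIM37 (mm9) and summarized with Seqmonk. The deposited signal values are the mean and SD over the 700-bp windows that a coding span touches, in 55432 rows of GENCODE M1 transcripts. The table had 1 column without values, which was not used. From these values, reads were recovered as mean times windows over the worth of 1 read. All rows gave whole reads within 0.01, and simulated windows with known reads were recovered. Differences between transcripts gave the reads, SDs and bounds of stretches.

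The transcript with the most windows stood for a gene. No test was made, since each group had 1 library. Before taking log2 ratios, 0.5 reads were added in both libraries. Ratios have 95% Clopper-Pearson intervals, levels exact Poisson intervals, and ratios of ratios exact conditional intervals; all cover counting error only, as reads without molecular identifiers are not independent molecules. Alternatives covered scaling, reads added, transcript, interval, fold and minimum reads. The joined Runx2 span, the coefficient of variation and the comparison with all coding spans were added after the data were seen. The signal classes and the counts of CG dinucleotides and RUNX site letters were not among the comparisons set out beforehand either.

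The genes and lists were chosen with earlier results of these data known. Named are all 7 genes, from each list the 2 highest and 2 lowest log2 ratios where both libraries together held 100 reads or more, the gene nearest in level to each, and overlapping spans. Kat6a, Kmt2a and Spi1 were matched by the older symbols Myst3, Mll1 and Sfpi1, and Gfi1 was not analysed here. The tools were scipy 1.17.1, pandas 2.3.3, numpy 2.4.6 and matplotlib 3.10.9 in Python 3.11.15.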

Additional observations from a re-analysis of the deposited data

How the results depend on the processing

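No paired analysis was possible because each group has 1 library. Of 188 alternative values over 61 results, 133 stayed close to the reported value, 54 moved and 1 was counted as reversed. The reversed value was that of the Runx1 part between its starts, whose reported value was past 2-fold lower. Values counted as moved also include changes of sign, among them those of Runx1, Runx3, Cbfb, Cbfa2t2 and Cbfa2t3 under the median of ratios. Adding 0 or 5 reads, another interval, the total scaling and no scaling moved none. The median of ratios, from 544 read-rich single windows (factor 3.681), moved the log2 ratios to 1.06 (Runx1), 1.93 (Runx2), 1.39 (Runx3), 1.24 (Cbfb), 2.18 (Runx1t1), 1.78 (Cbfa2t2) and 1.56 (Cbfa2t3), with all 7 genes at least 2-fold higher, as were 17655 genes, and 18 lower. Under it the Runx1 part between its starts went from -1.04 to 0.79 and the rest of Runx1 to 1.7, the parts of Runx2 to 1.3 (between starts), 1.08 (proximal start) and 2.39 (3′), of Runx3 to 1.31 and 1.49, of Cbfa2t3 to 1.4 and 2.05, the 5′ part of Cbfa2t2 to 1.61, and the first and last of Runx1t1 to 1.91 and 2.16. The list medians became 1.96 (RUNX partners), 1.63 (corepressor partners), 1.75 (targets) and 2.14 (skeletal and neuronal factors). With the transcript of fewest windows, which covers other windows, the log2 ratio was -0.46 for Runx1 (1 window), -0.58 for Runx2, 0.39 for Cbfa2t2 and 0.26 for Cbfa2t3, and the median over transcripts was -0.29 for Runx1, -0.29 for Runx2 and 0.22 for Cbfa2t3. Over all listed windows Runx2 was at -0.04. At 1.5-fold, 1 of the 7 genes was lower, and 4289 genes were lower and 2000 higher. With at least 100 reads over both libraries, 46 genes were 2-fold higher. For the 7 genes, the median of ratios was the one scaling tried that turned directions; the total scaling also took the median of the targets from -0.03 to 0.01. Depth limits Runx1t1 most, with 344 and 423 reads in all.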

Other observations

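The genes nearest to these genes in both levels, among genes with a comparable number of windows, were Lrrfip1 for Runx1 (16.3 and 11.0 reads per window, against 17.3 and 10.2), Arhgap26 for Runx2 (7.18 and 7.94), Ccdc62 for Runx3 (16.6 and 12.3), Clspn for Cbfb (10.4 and 7.11), Glra3 for Runx1t1 (1.6 and 2.11), Slain2 for Cbfa2t2 (6.15 and 5.9) and Arhgef10 for Cbfa2t3 (18.4 and 15.1). Runx1 was farthest from its nearest gene, at a distance of 0.135 in log2 reads per window over both libraries, while the other distances were 0.0116 to 0.0336.

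The letters TGTGGT or TGCGGT, on either strand, occurred 1.23 times per kb over the windows of Cbfb, 1.14 at Runx3, 1.13 at Runx1, 1.05 at Cbfa2t2 and Cbfa2t3, 0.864 at Runx1t1 and 0.848 at Runx2, beside a median of 0.916 over 22575 genes. The GC content of the windows was 53.9% at Runx3 and 53.8% at Cbfa2t3, both at the 88.3 percentile of genes, and 47.3% at Runx1, while Cbfb (40.6%), Runx1t1 (40.8%), Cbfa2t2 (41.6%) and Runx2 (44.9%) were below the median of 45.6%.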
